A study of Mus musculus with 8 samples.

Results

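The nuclear genes of oxidative phosphorylation were described in hippocampal RNA-seq of mice labelled wild type (WT) or Slm2KO. They were chosen by gene symbol: names beginning with Nduf, a subunit letter and a digit, Sdha to Sdhd, and names beginning with Uqcr, Cox4 to Cox8 or Atp5. This rule took 84 of the 56575 features in the table, of which 24338 have a symbol, and no symbol was repeated. By symbol, 37 members belong to complex I, 4 to complex II, 8 to complex III, 18 to complex IV and 17 to complex V. Ndufa4 is counted under complex I by this rule although its protein is known as a complex IV subunit, and Ndufa4l2, Atp5s and Atp5sl are not established structural subunits. Ndufab1, Cyc1 and Usmg5 fall outside the rule and are given with the other genes of the pathway.

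All 8 libraries came from the hippocampus of C57BL/6 animals aged 8 weeks, 4 labelled WT and 4 labelled Slm2KO. The labels give no other allele or agent and do not say how the knockout was made. Samples are numbered, but whether each is a separate animal is not stated, so the p-values describe the scatter of these libraries, part of which may be technical. Reads of Y-linked genes were present in 1 of 4 WT and 2 of 4 Slm2KO libraries, so each label holds libraries from more than 1 animal and of both sexes. Libraries are named by label and replicate, for example WT 2. The study examined expression and splicing in both genotypes, and gene-level expression is covered here.

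Oxidative phosphorylation passes electrons from NADH and succinate through complexes I to IV of the inner mitochondrial membrane to oxygen, and complex V uses the resulting proton gradient to make ATP. Most subunits are encoded in the nucleus and a small set of core subunits in the mitochondrial genome. Neurons depend on this pathway for most of the ATP that restores ion gradients after firing. Several complex IV subunits exist as a widely expressed form and another form known from heart and skeletal muscle, testis or lung.

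The deposited values are normalised reads, that is, reads scaled for library size and not for gene length. The libraries held 104020058 to 125985224 reads, and the 84 members took 1.25% to 1.35% of them. Markers of pyramidal and granule neurons, 8 of 8 matched, summed to 365616 to 520921 normalised reads per library, so transcripts of hippocampal neurons were present in each. Khdrbs3, which encodes the SLM2 protein, ran from 25932 to 33366 in the Slm2KO-labelled libraries and from 19457 to 24544 in WT, so it was not lower under the knockout label. The table holds 1 value per gene and cannot show loss of a part of it, so directions refer to the labels. In bulk tissue, fewer cells of a type and less RNA per cell cannot be told apart.

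Most members were among the abundant transcripts of the hippocampus. Levels of different genes were compared as normalised reads per kilobase of exon, averaged over the 8 libraries. Among 15456 protein-coding genes with an exon length and a mean of at least 10 normalised reads, the median was 535 normalised reads per kilobase. The median member lay at percentile 97.4 of those genes, 69 of the 84 members lay above percentile 90 and 15 above percentile 99. Atp5b, the catalytic beta subunit of ATP synthase, was highest at 93450.0 normalised reads per kilobase (chromosome 10, 128083301 to 128090388, plus strand, mm10). Cox4i1, a nuclear subunit of complex IV, followed at 75800.5 (chromosome 8, 120668225 to 120674209, plus strand). Cox8a stood at 72165, Ndufa4 at 55678 and Uqcrh, the hinge protein of complex III, at 52436 normalised reads per kilobase. At the other end were Cox7b2 at 67.7, Cox4i2 at 149 and Ndufa4l2 at 203. Cox8c, known from testis, was listed at 0 in all 8 libraries (chromosome 12, 102899306 to 102900534, plus strand). A count of 0 allows up to 3 reads in a library, counting error only.

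**Figure D1:**
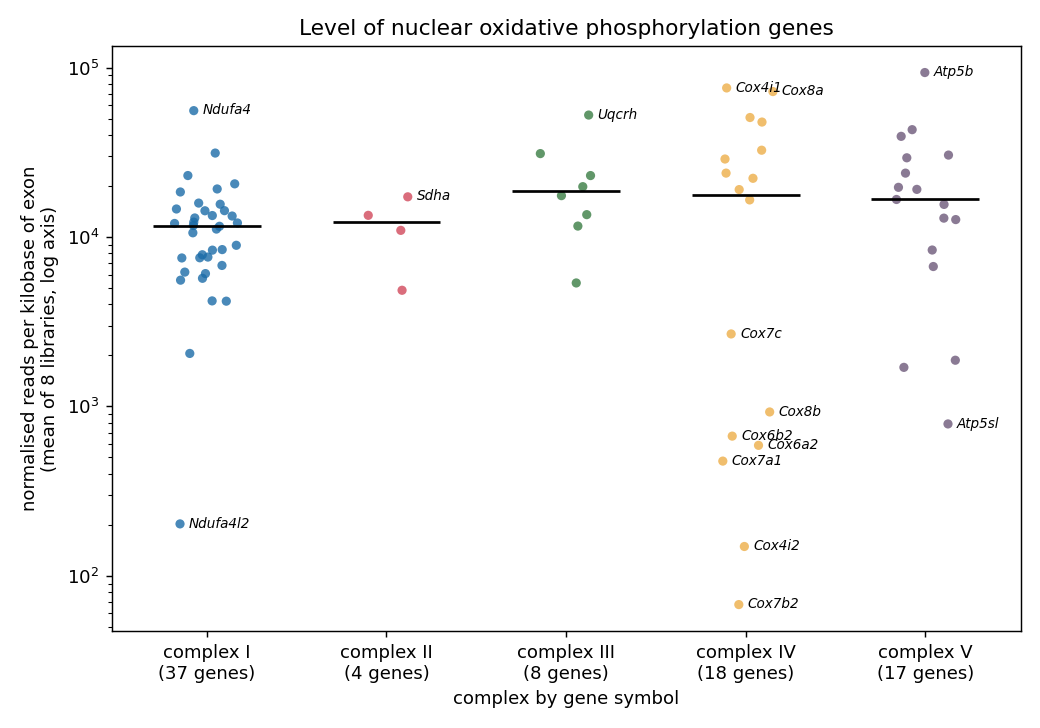
Normalised reads per kilobase of exon (log axis) for each member by complex, as the mean of 8 libraries; points are genes and black bars are medians over the members of a complex. Atp5b is highest at 93450.0, and a group of low complex IV isoforms stands apart at 928 (Cox8b) and below. Cox8c, listed at 0, is not drawn but counts in the median.

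Complexes I and II had lower median levels than complexes III, IV and V. The median over members, taken in each library and then averaged, was 11421 ± 541 normalised reads per kilobase for complex I and 12182 ± 529 for complex II (SD, n = 8). It was 16648 ± 833 for complex V, 17796 ± 1019 for complex IV and 18678 ± 1041 for complex III (SD, n = 8). Neighbours in this order overlapped between libraries: complexes I and II ranged over 10928 to 12451 and 11280 to 12888. Complexes V, IV and III ranged over 15470 to 17665, 16028 to 19260 and 16973 to 19850, and these ranges overlapped too. The highest library of complex II lay below the lowest of complex V. The order depends on the length used: by coding length complex V, not complex III, had the highest median, at 38316.

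Within complex I, the 7 nuclear core subunits carry the flavin, the iron-sulfur clusters and part of the quinone site. Ndufv1, which binds NADH, had 21212, 21943, 21735 and 21963 normalised reads in WT 1 to 4 and 22358, 21875, 22794 and 19739.6 in Slm2KO 1 to 4. Slm2KO 4 was the lowest and Slm2KO 3 the highest of the 8 libraries, and the groups overlapped. Per kilobase of exon Ndufv1 stood at 12234, and Ndufs8, an iron-sulfur subunit, was the lowest of the 7 at 5704.

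In complex II, Sdha is the flavoprotein that oxidises succinate. It had 46678, 50787, 52391 and 53301 normalised reads in WT and 49014, 49015, 50503 and 48757 in Slm2KO, so the Slm2KO values lay inside the WT range (chromosome 13, 74322254 to 74350248, minus strand). Per kilobase Sdha stood at 17261 and the iron-sulfur subunit Sdhb at 10943. The membrane anchors Sdhd and Sdhc stood at 13422 and 4848 normalised reads per kilobase.

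In complex III, the core protein Uqcrc2 had 35401, 35754, 37506 and 39382 normalised reads in WT and 37777, 36795, 40339 and 37604 in Slm2KO, with the groups overlapping. It lies on chromosome 7, 120635189 to 120659523, plus strand. The Rieske iron-sulfur protein Uqcrfs1 stood at 13548 normalised reads per kilobase and the lowest member of this complex, Uqcrq, at 5355.

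In complex IV, Cox4i1 had 55623, 56323, 60382 and 62041 normalised reads in WT and 56506, 57057, 59978 and 55989 in Slm2KO. Its Slm2KO values lay inside the WT range. Cox5a and Cox5b, which sit on the matrix side of the complex, stood at 23825 and 16548 normalised reads per kilobase.

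In complex V, Atp5b had 169090.0, 172586, 181462 and 188920.4 normalised reads in WT and 181473, 176928, 188844 and 173099 in Slm2KO, inside the WT range. Its partner Atp5a1, the alpha subunit, stood at 42992 normalised reads per kilobase and the central shaft subunit Atp5c1 at 19098. Atp5sl was the lowest member listed under complex V at 788.

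Isoform pairs of the same subunit differed far more than the complexes did. In every complex IV pair the widely expressed form dominated. The detected forms known from muscle, testis or lung each made up 0.197% to 1.30% of their family per kilobase, and Cox8c was listed at 0. The start regions of 3 pairs are shown because the low member of each varied between libraries together with a choroid plexus transcript. Each run covers 100 bases before and 20 bases from the start site, 5′ to 3′ on the gene's strand, from RefSeq on GRCm38.p6. Capitals mark a match to an ETS motif or to TATAAA, the letters of a TATA box.
Cox6b1: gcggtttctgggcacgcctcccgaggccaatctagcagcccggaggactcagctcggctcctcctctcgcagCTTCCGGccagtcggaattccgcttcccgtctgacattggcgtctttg
Cox6b2: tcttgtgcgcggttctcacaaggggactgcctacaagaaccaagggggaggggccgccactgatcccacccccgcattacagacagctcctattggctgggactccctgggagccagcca
Cox7a2: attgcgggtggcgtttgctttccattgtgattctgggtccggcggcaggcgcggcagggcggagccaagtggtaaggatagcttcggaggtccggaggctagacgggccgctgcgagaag
Cox7a1: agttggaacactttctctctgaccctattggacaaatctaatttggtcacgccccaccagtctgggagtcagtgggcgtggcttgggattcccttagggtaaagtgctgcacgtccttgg
Cox8a: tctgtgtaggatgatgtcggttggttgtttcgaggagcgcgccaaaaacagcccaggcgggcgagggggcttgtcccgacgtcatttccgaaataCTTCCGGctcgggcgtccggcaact
Cox8b: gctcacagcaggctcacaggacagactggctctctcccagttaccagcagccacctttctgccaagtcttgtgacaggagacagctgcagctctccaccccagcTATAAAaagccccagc
Cox6b1 and Cox6b2 lie on chromosome 7 at 30626095 to 30626214 and 4753075 to 4753194, both on the minus strand. Cox7a2 lies on chromosome 9 at 79759834 to 79759953, minus strand, and Cox7a1 on chromosome 7 at 30184071 to 30184190, plus strand. Cox8a lies on chromosome 19 at 7217597 to 7217716 and Cox8b on chromosome 7 at 140900427 to 140900546, both minus. The windows of the abundant forms held more CpG dinucleotides: 11 in Cox6b1 against 4 in Cox6b2, 12 in Cox7a2 against 3 in Cox7a1, and 13 in Cox8a against 0 in Cox8b. An ETS motif (CCGGAAG, either strand) was found in Cox6b1 and Cox8a, and the letters TATAAA in Cox8b. The search set no position, and the TATAAA of Cox8b lies within the 20 bases from the start site, not before it. It is therefore not placed as a TATA box upstream of that start.

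Over longer windows of 300 bases, 66 of the 84 members had an entry in the RefSeq table. The motif of the regulator NRF1 (GCGCA, any base, then GCGC) was present in 17 of the 66 (25.8%), against 5.19% of 27025 genes. The ETS motif was present in 16 members (24.2%) against 9.93%, and the YY1 motif (AAGATGGCG) in 7 members (10.6%) against 1.64%. TATAAA was present in 7 members (10.6%) against 15.7% of all genes, and members held a median of 19 CpG against 8. All motifs were searched on both strands and do not contain one another. A match is a description of the letters and shows no binding.

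Cox8b, the heart and skeletal muscle form of the smallest complex IV subunit, varied most of all members. It had 684, 36.2, 356 and 203 normalised reads in WT and 456, 89.4, 293 and 554 in Slm2KO (chromosome 7, 140898942 to 140900446, minus strand). WT 2 and Slm2KO 2 were low, WT 1 was high, and the groups overlapped. It made up 1.29% ± 0.911 of the Cox8 level per kilobase (SD, n = 8; range 0.145% to 2.60%), and Cox8a was 77.8-fold higher. Cox8a itself varied 1.36-fold between its highest and lowest library, against 18.9-fold for Cox8b.

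Cox6b2, known from testis, had 679, 252, 646 and 465 normalised reads in WT and 459, 264, 518 and 675 in Slm2KO (chromosome 7, 4751794 to 4753094, minus strand). Again WT 2 and Slm2KO 2 were the lowest, and the groups overlapped. Its share of the Cox6b level per kilobase was 1.30% ± 0.442 (SD, n = 8).

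Cox7a1, the muscle form of its subunit, had 309, 176, 325 and 239 normalised reads in WT and 188, 163, 249 and 387 in Slm2KO (chromosome 7, 30184169 to 30186029, plus strand). WT 2, Slm2KO 1 and Slm2KO 2 were low and Slm2KO 4 was high. It held 0.912% ± 0.272 of the Cox7a family, Cox7a2 held 62.4% ± 1.59 and Cox7a2l, known for its part in assembling supercomplexes, held 36.7% ± 1.71 (SD, n = 8).

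The remaining low isoforms were steadier or close to the limit of counting. Cox4i2, the lung form that responds to oxygen, held 0.197% ± 0.0422 of its family, and Cox4i1 was 509-fold higher. Cox6a2, the muscle form, held 1.22% ± 0.144 and Cox7b2, known from testis, 0.306% ± 0.120 (SD, n = 8). Cox7b2 had only 11.5 to 57.0 normalised reads. Ndufa4l2, a form known to be induced by low oxygen, held 0.366% ± 0.0933 of the pair with Ndufa4 (SD, n = 8). Markers of skeletal and cardiac muscle, 9 of 9 matched and 2 of them under 10 normalised reads, summed to 786 to 878 in WT and 753 to 875 in Slm2KO. Of 6 male germ cell markers, Tnp1, Prm1 and Prm2 were listed at 0, and the sums were 518 to 782 in WT and 344 to 674 in Slm2KO.

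The Atp5g genes of complex V encode the same mature c subunit, which forms the membrane ring. Atp5g3 held 74.8% ± 0.889 of their level per kilobase of exon, Atp5g2 held 20.6% ± 0.979 and Atp5g1 held 4.60% ± 0.190 (SD, n = 8). The order of the latter 2 depends on the length: by coding length the shares were 58.8% for Atp5g3, 15.8% for Atp5g2 and 25.4% for Atp5g1, whose annotated exons span 4912 bases against 408 coding bases.

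**Figure D2:**
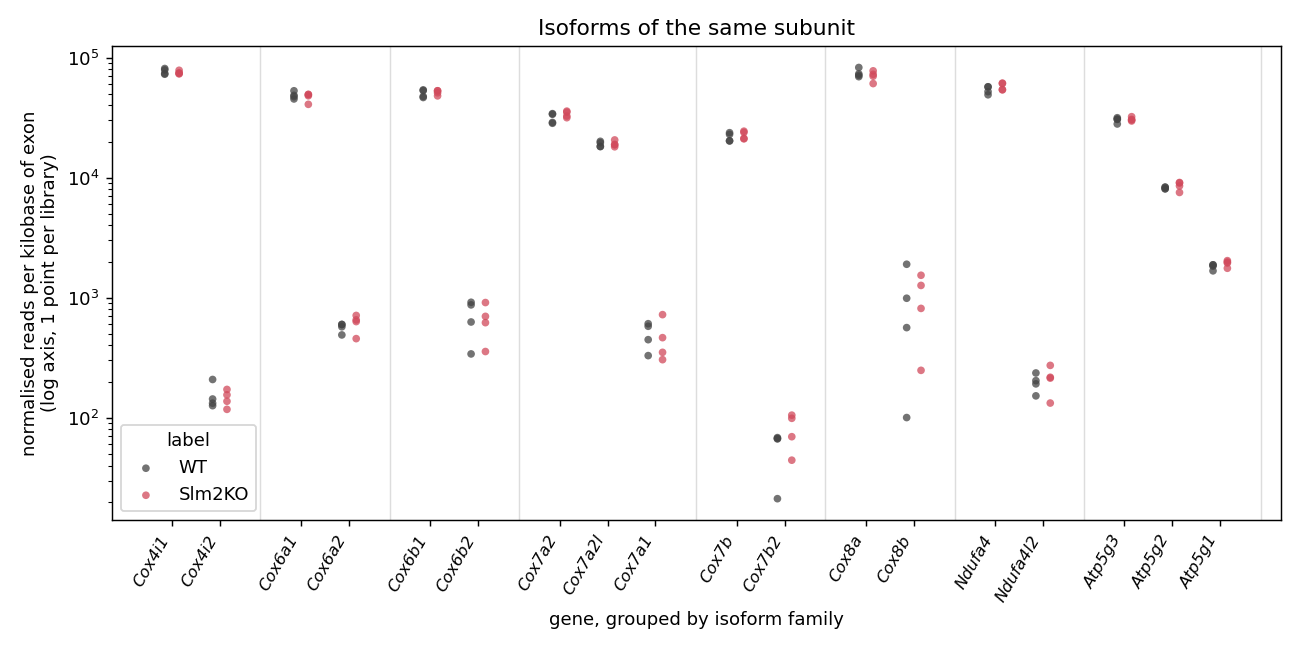
Normalised reads per kilobase of exon (log axis) for each isoform family; each point is 1 library, black WT and red Slm2KO. The low forms lie well under the abundant forms in each complex IV pair, and Cox8b spans the widest range, with its lowest points in WT 2 and Slm2KO 2.

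Cox8b, Cox6b2 and Cox7a1 followed Ttr, the transthyretin transcript that marks choroid plexus epithelium. Ttr had 1519675, 219052, 1791307 and 794256 normalised reads in WT and 844419, 376053, 830006 and 2262369 in Slm2KO. This relation was examined after seeing the data, as a slope on log2 Ttr with the genotype label in the model (limma). Of 83 members tested, 6 had a positive slope past an adjusted p of 0.05 and 0 a negative one, against 3.97% positive and 1.06% negative calls among all 25667 features. The slope was above 0 in 61 of 83 members, against 48.8% of features. With single libraries left out this count ran from 44 (without WT 2) to 72 (without Slm2KO 4). It was 39 without both extreme Ttr libraries and 36 with the series of sample numbers, described below, as a covariate. Shares over all features in these refits are not given here, and these counts are not read as a result about the members. The slope of Cox8b was 1.15 log2 units per log2 unit of Ttr (SE 0.144, adjusted p = 0.000703). That of Cox6b2 was 0.49 (SE 0.050, adjusted p = 0.000177) and that of Cox7a1 0.36 (SE 0.064, adjusted p = 0.00737). The other called slopes were small: 0.14 for Ndufa1, 0.10 for Ndufv3 and 0.090 for Sdhc, with adjusted p of 0.0367, 0.0235 and 0.0368.

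The abundant partners Cox8a, Cox6b1 and Cox7a2 had slopes of -0.027, 0.027 and 0.053, none past the threshold. All 20 of 20 choroid plexus markers matched and had a called slope, Ttr being 1 of them and called by construction, and they summed to 350738 to 2490107 in WT and 532008 to 3157983 in Slm2KO. Of 9 markers of skeletal and cardiac muscle 7 were tested, and 0 had a called positive slope, against 3.97% of all features. With so few genes tested, this count cannot show whether the list follows Ttr. The number of called members changed with the libraries in the fit. Without WT 2, WT 3, Slm2KO 2 or Slm2KO 4 only 3 members passed, without WT 1 10 passed, and without both extreme Ttr libraries 1 passed, Cox6b2 (adjusted p = 0.0395; Cox8b 0.0668). With the presence of Y-linked reads as a covariate 3 passed, Cox8b, Cox6b2 and Cox7a1 (limma). Shares over all features for these refits are not given here, so their counts are not read as a result about the members.

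**Figure D3:**
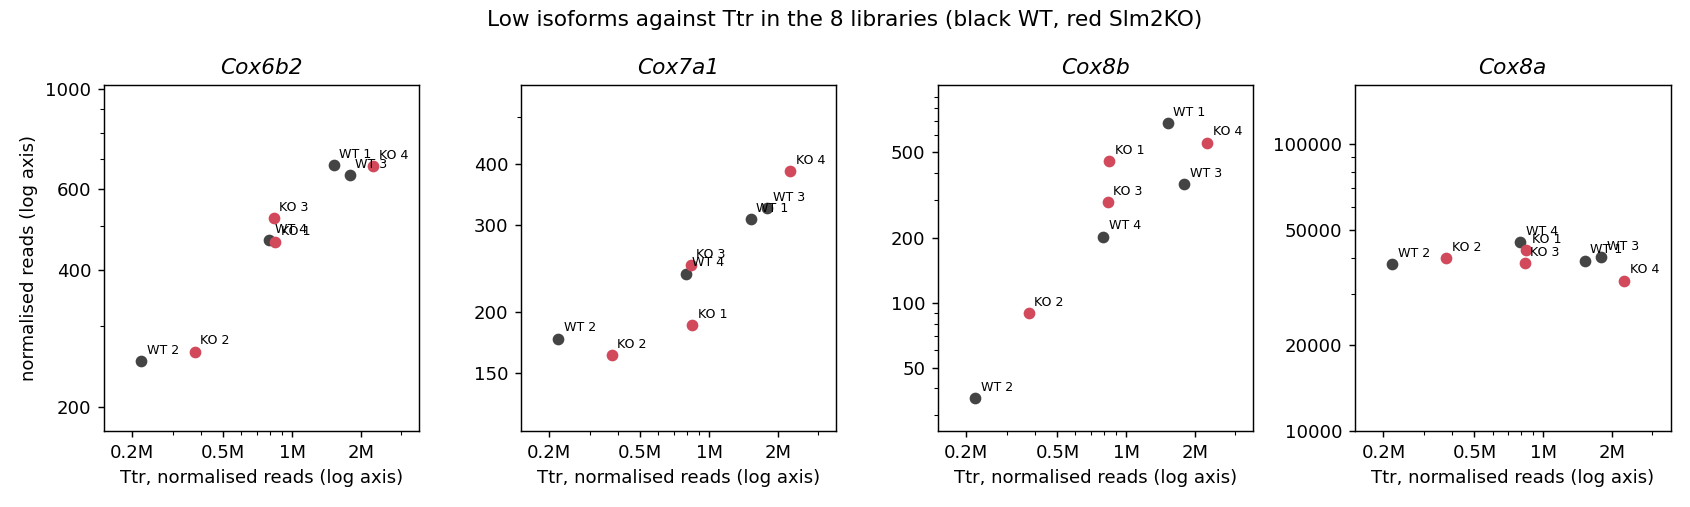
Normalised reads of Cox6b2, Cox7a1, Cox8b and the abundant Cox8a against Ttr, both on log axes, with 1 point per library named by label. The first 3 genes are high where Ttr is high, and Cox8a, whose axis spans a wider ratio than its values, shows no such rise.

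No member differed between the genotype labels beyond the spread between libraries. Of the 83 members tested with limma, 0 passed an adjusted p of 0.05 in either direction, against 0.00390% of the 25667 features (1 feature), and the adjusted p was 1.00 for each member. In this model, which held no covariate, none had an unadjusted p under 0.05, where the share among all features was 3.52%. edgeR's quasi-likelihood test on recovered reads also called 0 members (0.00390% of features) and had 0 at an unadjusted p under 0.05 (3.80%). DESeq2 called 0 members (0.0351% of features) and had 0 at an unadjusted p under 0.05 (3.68%). In 0 of 83 members did the groups fail to overlap, against 2.50% of all features.

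The intervals bound how large a difference could be. For 74 of 83 members the 95% interval of the Slm2KO over WT ratio lay within a 1.25-fold change, against 42.9% of all features and 90.6% of the 4389 features with a mean of at least 5000. It lay within 1.5-fold for 79 members (65.7% of all features) and within 2-fold for 81 (85.2%). The members outside 2-fold were Cox8b, whose interval ran from 0.380 to 5.01, and Cox7b2, from 0.772 to 2.79. Those outside 1.25-fold were these, the low isoforms Ndufa4l2, Cox4i2, Cox6a2, Cox6b2 and Cox7a1, and also Ndufa1 (0.870 to 1.252) and Cox7c (0.852 to 1.33).

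Differences leaned to the positive side, each within its error. The log2 difference was above 0 in 59 of 83 members, against 46.1% of all features, with a median of 0.036 against -0.011. By complex the medians were 0.036 (I, 27 of 37 positive), 0.016 (II, 3 of 4), 0.041 (III, 6 of 8), 0.029 (IV, 10 of 17) and 0.067 (V, 13 of 17). Members share libraries, so these counts are not independent. They ran from 47 positive without WT 2 to 66 without WT 3 or WT 4. Summed over all members, normalised reads were 1500666 ± 77406 in WT and 1525802 ± 41765 in Slm2KO (SD, n = 4 each), a difference smaller than either SD.

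The members with the smallest p-values in complexes I, III, IV and V were the following. In complex II the smallest unadjusted p was 0.397 (limma). Atp5k, subunit e of ATP synthase, had 13662, 13351, 14512 and 14491 normalised reads in WT and 13911, 15060.3, 15580.3 and 15966 in Slm2KO (chromosome 5, 108433254 to 108434388, minus strand). Slm2KO 1 lay inside the WT range and the other 3 above it. Its log2 difference was 0.11 (SE 0.057, limma unadjusted p = 0.0801; exact permutation p = 0.114, where 70 assignments allow no less than 0.0286). Atp5h, which encodes subunit d, had a log2 difference of 0.11 (SE 0.057). Ndufb5 and Ndufb6, accessory subunits of the membrane arm of complex I, had 0.11 (SE 0.060) and 0.11 (SE 0.062). In complex III the 2 members with the smallest p were Uqcrh at 0.086 and Uqcrq at -0.069, and in complex IV Cox7a2 at 0.11 and Cox6c at 0.11. The core subunits Ndufv1 and Ndufv2 had -0.0035 and 0.083, Sdha had -0.041, and Cox4i1 had -0.029. In complex V, Atp5b had 0.017 and Atp5c1 had 0.076 (SE 0.053 to 0.058 for these 6).

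**Figure D4:**
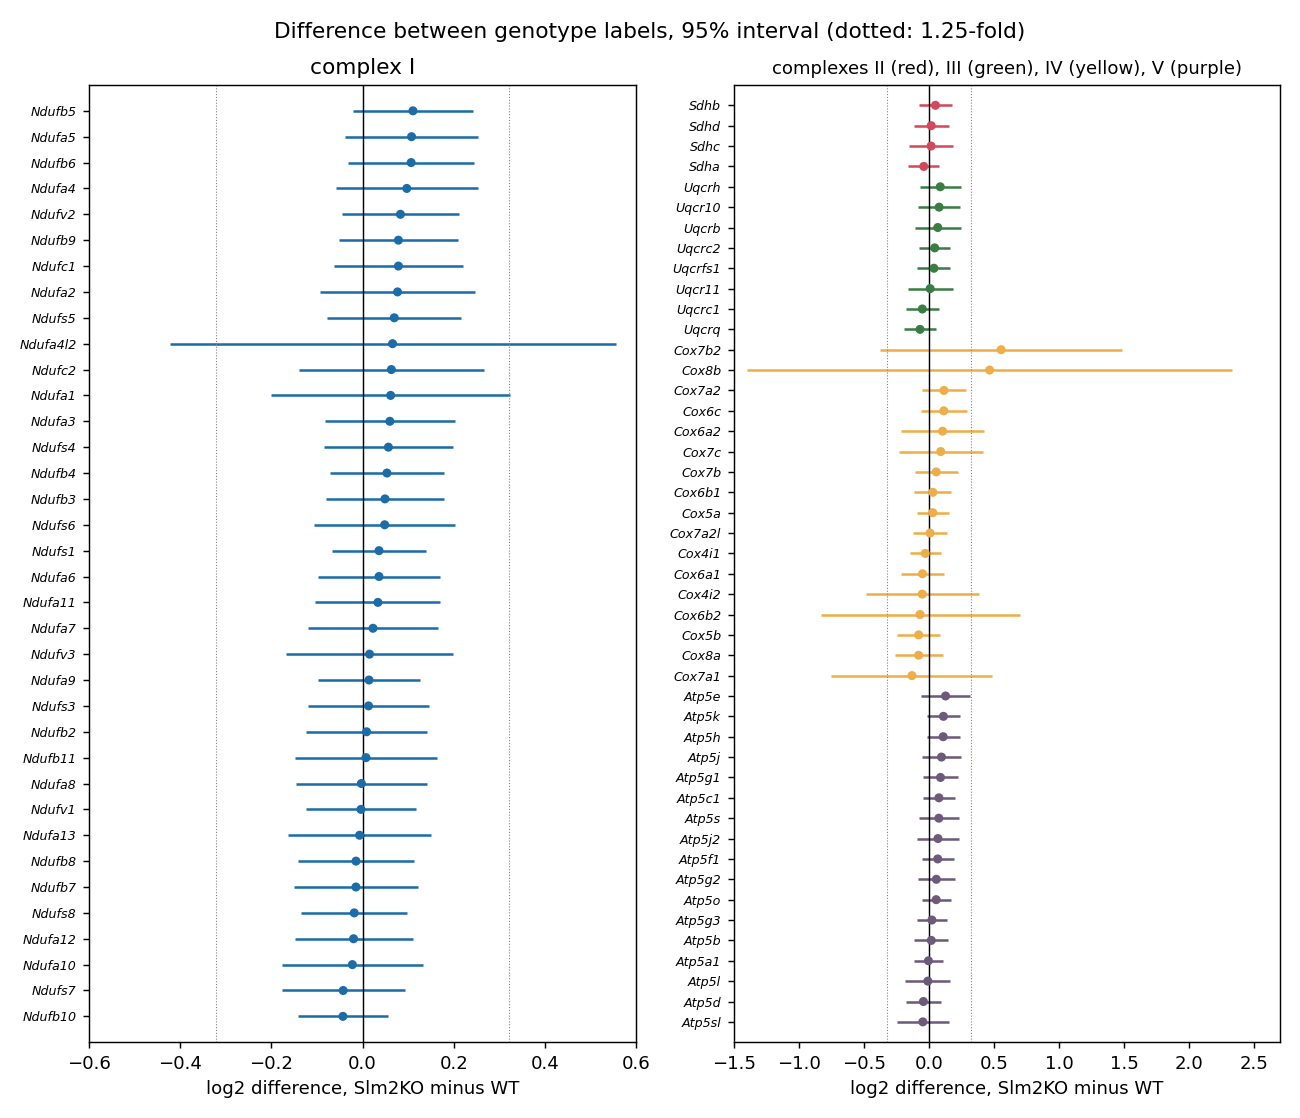
Log2 difference (Slm2KO minus WT) with its 95% interval for the tested members described here, by complex and ordered within each; dotted lines mark a 1.25-fold change, and the panels have different horizontal ranges. Every interval includes 0, and the wide ones belong to Cox8b, Cox7b2 and other low isoforms.

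The other genes of the pathway gave no call between the labels either. Of 50 assembly factors listed 43 matched, and 0 passed in either direction (limma), with 29 positive (46.1% of all features), 14 negative and a median log2 difference of 0.044 (-0.011 over all features). An unadjusted p under 0.05 (3.52% of all features) was found for 2 of them, Ndufaf4 and Tmem126b, which build complex I. Ndufaf4 had 6535, 6620, 6805 and 7071 normalised reads in WT and 7051, 7906, 7674 and 7469 in Slm2KO, a log2 difference of 0.15 (SE 0.053), with Slm2KO 1 inside the WT range. Tmem126b had a log2 difference of 0.15 (SE 0.066). For complexes II to V, Sdhaf2 had 0.079, Bcs1l, which inserts the Rieske protein, -0.094, Coa6, a copper chaperone of complex IV, 0.15, and Atpaf1, a chaperone of the beta subunit, 0.094.

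Of 6 subunits and carriers outside the symbol rule, 0 passed, 5 were positive (46.1% of all features) and 1 negative. By limma 1 of the 6 had an unadjusted p under 0.05, against 3.52% of all features. Cytochrome c, encoded by Cycs, had a log2 difference of 0.14 (SE 0.064) and Usmg5, a small ATP synthase subunit, 0.22 (SE 0.10). Of 14 regulators of mitochondrial biogenesis, 0 passed, 6 were positive (46.1% of all features) and 8 negative, with a median of -0.022. Ppargc1a, the coactivator PGC-1alpha, and Tfam, which packages mitochondrial DNA, had 0.013 and 0.017. Esrra, an orphan nuclear receptor that acts with PGC-1alpha, had 2845, 2852, 3029 and 2975 normalised reads in WT and 2727, 2819, 2662 and 2747 in Slm2KO. Its groups did not overlap (2.50% of all features), and the log2 difference was -0.095 (SE 0.050, limma adjusted p = 1.00; exact permutation p = 0.0286, the smallest possible). Over these lists edgeR and DESeq2 called 0 genes, with 3 and 4 at an unadjusted p under 0.05, against 3.80% and 3.68% of all features. The 13 mitochondrially encoded subunits carry no symbol in the table and were not analysed here one by one. The 13 features on the mitochondrial chromosome were not matched to these subunits. Together these features took 10.7% to 12.7% of reads, with 13412230.0 ± 1110888 normalised reads in WT and 13934957 ± 382256 in Slm2KO (SD, n = 4 each).

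Most members were higher in the libraries with higher sample numbers. The descriptions carry sample numbers that fall into a lower series (WT 1, WT 2, Slm2KO 1 and Slm2KO 2) and a higher series (WT 3, WT 4, Slm2KO 3 and Slm2KO 4), and their meaning is not stated. Each series holds 2 WT and 2 Slm2KO libraries. With the genotype label in the model, and chosen after seeing the data, 68 of 83 members were higher in the higher numbers, against 50.8% of all features, with a median log2 difference of 0.11 against 0.0027. An unadjusted p under 0.05 was found for 37 members that were higher, against 5.58% of all features and 8.52% of features with a mean of at least 5000, and for 0 that were lower, against 6.70%. By limma and by edgeR 0 members passed adjustment, against 0.0117% of all features by limma (3 features), with a smallest adjusted p of 0.203. The series did not overlap, with the higher numbers above, for 32 members, against 3.29% of all features.

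Cox7b, a small subunit of complex IV, had 20283, 20259.6, 21076 and 21257 normalised reads in WT 1, WT 2, Slm2KO 1 and Slm2KO 2 (chromosome X, 106015700 to 106022448, plus strand). In WT 3, WT 4, Slm2KO 3 and Slm2KO 4 it had 22959, 23711, 23840 and 24403, all above the other series, a log2 difference of 0.20 (SE 0.039). Ndufa4 had 30587 to 33804 in the lower and 35558 to 38248 in the higher numbers, a log2 difference of 0.18 (SE 0.041; chromosome 6, 11900373 to 11907451, minus strand). In complex I, 0 of 7 core and 17 of 30 accessory members had an unadjusted p under 0.05, with median log2 differences of 0.017 and 0.12; whether core and accessory members differ was not tested. By complex the members with an unadjusted p under 0.05 numbered 17 of 37 (I), 2 of 4 (II), 5 of 8 (III), 5 of 17 (IV) and 8 of 17 (V). Without WT 2, which was the lowest library for 43 members, 24 members remained under that p. The share over all features without WT 2 is not given here.

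Some other measures moved with the sample numbers. Reads of 4 Y-linked genes (Ddx3y, Uty, Kdm5d and Eif2s3y) summed to 0 to 3.62 in the lower numbers and in WT 3, and to 17979 to 19517 in WT 4, Slm2KO 3 and Slm2KO 4. With the presence of these reads as a covariate 16 members that were higher in the higher numbers had an unadjusted p under 0.05, against 37 without it, and 70 of 83 were higher. The share over all features with this covariate is not given here, so the drop is not read as a result about the members. Y-linked reads and sample number thus overlap, with WT 3 the single library of the higher numbers without Y-linked reads. The part of the following measures in these differences was not tested. All mitochondrial features summed to 12164461 to 13612774 normalised reads in the lower and 13628728 to 14812924 in the higher numbers. Oligodendrocyte markers, 6 of 6 matched with none at 0, summed to 668994 to 761167 and 800858 to 961472. Endothelial markers, 6 of 6 with none at 0, went the other way, with 15658 to 19164 and 12864 to 15169, as did markers of pericytes and smooth muscle, 9 of 9 with none at 0, with 38185 to 45958 and 31116 to 36358. Ranges of the series overlapped for markers of choroid plexus, pyramidal and granule neurons, interneurons, astrocytes, microglia, muscle and male germ cells. Markers of pyramidal and granule neurons, for example, summed to 453236 to 520921 in the lower and 365616 to 486205 in the higher numbers. Within the lower numbers 76 of 83 members were higher in Slm2KO (49.2% of features), with a median log2 difference of 0.072. Within the higher numbers 45 of 83 were (47.0% of features), with a median of 0.0044. The difference between these differences passed adjustment for 0 members by limma (0% of features), with 2 at an unadjusted p under 0.05, against 3.09% of features.

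**Figure D5:**
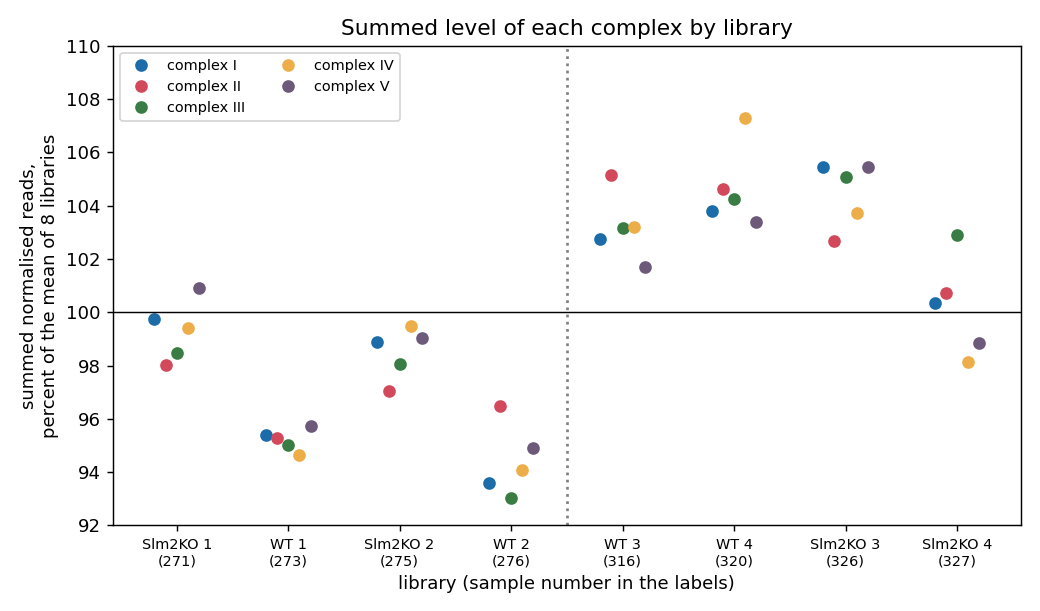
Summed normalised reads of each complex in each library, as a percentage of its mean over the 8 libraries, in order of sample number; colours are complexes and the dotted line separates the lower from the higher numbers. Complexes I, II and III lie lower in each of the 4 left libraries than in each of the 4 right ones, and complexes IV and V overlap because of Slm2KO 4.

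Counting limits some single values. In 28 of the 84 members more than 10% of the 30-base stretches of their transcripts also occur in other genes, whose type was not examined. The sources used here do not say how reads from such stretches were assigned. The share was 69.7% for Atp5l, 54.9% for Uqcrb, 50.3% for Ndufs3, 47.5% for Atp5h and 25.3% for Cox7c, whose 2304 to 3841 normalised reads are uncertain for that reason. In 13 members more than 10% of exon bases also lie in another gene, among them Ndufb5, Ndufb6, Uqcrc2, Cox5a and Atp5j, which overlaps Gabpa. The kit does not mark strand, so reads from such overlaps cannot be told apart.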

How the data were processed

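RNA from 8 hippocampal samples was sequenced after Trizol extraction and TruSeq library preparation, per the labels' protocols. The deposited signal is 1 normalised read count per gene and library, scaled by DESeq per the submitters' processing notes, which also name FastQC, Picard and SAMtools. They list hg19, a human build, but the header gives mm10 and the symbols are mouse; the aligner and counter are not given there. Values were whole multiples of a library's step, so whole reads were recovered (100% of values within 0.001) for edgeR 4.0.16 and DESeq2 1.42.0. Labels were compared with limma 3.58.1 (R 4.3.3) on log2(value + 1) with a trended prior, over 25667 features with a mean of at least 10, with Benjamini-Hochberg adjustment at 0.05 and tested on simulated data. The added 1 understates changes of low genes. Fold intervals are 95%. Exon and coding lengths, overlaps and shared 30-base stretches came from GENCODE M21. Members, lists and tests were chosen with earlier results of these data known. Named genes were core subunits, isoform families, the 2 smallest p-values and the extreme levels of each complex, the 2 smallest p-values of each pathway list, and Ppargc1a and Tfam; other genes named were chosen after their values were seen. Alternatives covered pseudocounts, filters, scaling, tests, weights, covariates, a replicate block and single libraries left out. Single-gene values of 1 member are not reported here. Splicing was not analysed here.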

Additional observations from a re-analysis of the deposited data

Results flagged for a closer look

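In 10 of 166 groups of 4 libraries (83 genes in each label) the highest or lowest library stood far from the other 3, measured as its gap over the range. Chance gives about 1 in 20 groups. In Slm2KO 3 the normalised reads stood apart for Ndufa5 (11985), Ndufa9 (17705), Ndufs8 (7769) and Sdha (50503), all high. In Slm2KO 4 they stood apart for Ndufa10 (14775), Ndufa8 (10339), Cox6a1 (23301) and Atp5sl (1560), all low. In WT 4 they stood apart for Ndufs3 (12696, high) and Cox7b2 (11.5, low). No library of the other 5 was singled out.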

How the results depend on the processing

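The count of 0 members called between the labels held under all 23 alternatives run, as did 0 calls among the other pathway genes, while the sign of the difference changed in at least one alternative for 21 of the 45 tested members named by rule. The correlations of same-numbered replicates ran from -0.122 to 0.323, WT 2 alone correlating best with its own number, and the numbers were not taken as pairs. With the replicate number as a block 0 members passed and 1 had an unadjusted p under 0.05. With the number series as covariate 6 had one. The shares over all features in these models are not given here, so the counts are not read as a result about the members. No symbol was repeated, so summing repeated rows changed nothing. By coding length the levels per kilobase for complexes I to V were 21580.3, 27724, 32754, 36245 and 38316, and as means over members 12462, 11618, 21799, 21939 and 22075. By coding length the isoform shares were 98.3% for Cox6a1, 99.8% for Cox7b, 99.5% for Ndufa4 and 58.8% for Atp5g3. Members with a called slope on Ttr numbered 2 with the number series as covariate (Cox6b2 and Cox8b), 3 with Y-linked reads as covariate, 1 without the extreme Ttr libraries, and 3 to 10 with single libraries left out. Members with an unadjusted p under 0.05 between the number series numbered 24 to 47 with single libraries left out and 16 with Y-linked reads as covariate. The shares over all features under these alternatives are not given here, and the cause of these changes was not tested. These comparisons on Ttr, sample numbers and Y-linked reads, and the isoform shares by coding length, were added after seeing the data.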
